A study of Homo sapiens with 24 samples.

Results

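The 10 genes described here carry the entry of a cell into mitosis: the Aurora kinases AURKA and AURKB, the Aurora A activators TPX2 and BORA, the Polo-like kinase PLK1, the mitotic kinase CDK1 with its cyclin CCNB1, the anaphase activator CDC20, and the Aurora B partners INCENP and BIRC5. They were taken by gene symbol from a table of read counts that lists 14493 genes, and all 10 were found in it. The counts come from RNA-seq of SKBR3, a human cell line derived from a breast cancer, with 24 libraries that fall into 8 groups of 3. A pair of groups was untreated, one collected at day 0 while proliferating and one at day 7. The other 6 groups were rendered senescent by a drug (therapy-induced senescence, TIS), given fresh drug on day 3, and collected at day 7. The labels give a refeed on day 3 for each drug group and none for untreated day-7 cells. Drug and refeeding therefore cannot be told apart where these groups are compared. Alisertib, an inhibitor of the Aurora A kinase, was given at 500 nmol/L, bleomycin, an antibiotic that promotes oxidative stress, at 10 μmol/L, and doxorubicin, a topoisomerase II inhibitor, at 10 nmol/L. Palbociclib (Palboclib in the labels), an inhibitor of the CDK4 and CDK6 kinases, was given at 1 μmol/L, and 250 nmol/L was the dose of both inhibitors of lipid synthesis, ND-646 (against ACC) and TVB-3166 (against FASN). All libraries come from 1 cell line, and the labels do not say whether replicates of a group are separate cultures. The methods speak of independent experiments for cell-based observations in general and not for the RNA-seq, so p-values measure the spread between these libraries.

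Cells enter mitosis when CDK1 bound to cyclin B1 becomes active. BORA helps Aurora A to phosphorylate PLK1, which promotes that switch, whereas TPX2 binds Aurora A, holds it in its active shape, and carries it to the spindle. Aurora B works in the chromosomal passenger complex with INCENP and survivin (the BIRC5 product), and CDC20 then directs the anaphase-promoting complex to cyclin B1 and ends mitosis. Transcripts of these genes are high in G2 and M phase and low in cells that have left the cycle. Alisertib blocks the activity of the Aurora A protein, which the amount of AURKA transcript does not measure.

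The libraries held between 29405121 and 44316330 counts each, and the smallest count of any of the 10 genes in any library was 41, for AURKB. Levels are given as CPM, counts scaled to the library total with TMM normalization, as mean ± SD of 3 libraries. No replicate pair held identical counts. The chi-square per degree of freedom over all genes was 157 and 171 between ND-646 replicate 1 and the others of its group, against 14.2 between those, and 183 for both pairs with day-0 replicate 1, against 19.6. In the other groups it was at most 55.5. ND-646 replicate 1 also had the lowest TMM factor, 0.785. Counts of genes called by adjusted p-value in drug groups against untreated cells, and in TVB-3166 against ND-646 cells, are given without these libraries as well. The counts at a 2-fold limit are not. Of 7 epithelial and ERBB2-locus markers all were present, with group means of 5688 to 8271 CPM for ERBB2, which SKBR3 cells are known to overexpress, and of 300.8 to 430.7 CPM for EPCAM. Against day-0 cells 2 to 4 of the 7 were called lower in each drug group, where 18.8% to 27.7% of all genes were. Against day-7 cells it was 0 (palbociclib) to 3 (bleomycin) of the 7, where 9.49% to 26.1% of all genes were called lower. The keratins KRT8 and KRT19 were lower in every drug group than in day-0 cells, with KRT8 at a log2 fold-change of -0.81 in alisertib, -1.19 in ND-646, and -1.20 in bleomycin cells. GRB7 was higher in TVB-3166 than in day-0 cells (0.62). Of 7 fibroblast, endothelial, and leukocyte markers, only COL1A1 (7.62 to 12.3 CPM) and VWF (0.0993 to 1.10 CPM) were in the table used. COL1A1 was lower in bleomycin, doxorubicin, and palbociclib than in untreated day-0 cells (log2 fold-change -0.49, -0.68, and -0.54) and also than in day-7 cells, whereas VWF was higher in bleomycin and doxorubicin than in day-7 cells (1.11 and 1.48). VWF was lower in ND-646 and TVB-3166 than in untreated day-0 cells (log2 fold-change -2.90 and -1.66; adjusted p = 0.0128 and 0.0344). The part of these markers in the results was not tested. The lowest count in the table is 1, so a gene with no read in any 1 library is not analysed here. In bulk RNA, fewer cells in G2 and M phase and less transcript per such cell cannot be told apart.

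On GRCh37, AURKA lies on the minus strand of chromosome 20 (54944445 to 54967393), as does AURKB on chromosome 17 (8108051 to 8113918). TPX2 is on the plus strand of chromosome 20 (30327074 to 30389608), PLK1 of chromosome 16 (23688977 to 23701688), CDK1 of chromosome 10 (62538089 to 62554610), CCNB1 of chromosome 5 (68462962 to 68474072), and CDC20 of chromosome 1 (43824652 to 43828874). BORA (chromosome 13, 73301887 to 73330336), INCENP (chromosome 11, 61891470 to 61920641), and BIRC5 (chromosome 17, 76210267 to 76221717) are on the plus strand as well. All values are for whole genes. BORA is overlapped on the opposite strand by DIS3, an RNA exosome subunit, and the use of strand in counting is not given in the sources used here. DIS3 had group means of 63.0 to 75.8 CPM, whereas BORA had 2.63 to 11.5 CPM, so a small share of misassigned DIS3 reads would weigh on BORA. The pseudogene AURKAP1 was in the table at 0.842 to 1.60 CPM, against 33.1 to 209 CPM for AURKA.

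Promoters of 7 of the 10 genes were matched in RefSeq (GRCh38.p14), in 9 windows from 250 bases before to 50 bases after a start site, with pairs of overlapping windows for CDK1 and AURKB. A pair of motifs known from G2 and M phase promoters was searched on both strands. They are the cell cycle genes homology region (CHR), read as TTTGAA or with its known variants TTTAAA and also TTCGAA, where the DREAM and MYBL2 complexes bind, and CCAAT, where NF-Y binds. A CHR was found in 7 of 9 windows (77.8%) and CCAAT in 9 of 9 (100%), against 18.3% and 34.7% of 15208 windows of genes in the count table. Both were found in 77.8% against 7.23%. The 150 bases before the start are shown for CDC20 (chr1:43358831-43358980, plus strand), CCNB1 (chr5:69167000-69167149, plus strand), and PLK1 (chr16:23678739-23678888, plus strand), where both motifs stand together. They are also shown for AURKB (chr17:8210250-8210399, minus strand), where CCAAT was matched without a CHR. Capitals mark the motifs, with ATTGG as the reverse of CCAAT.
CDC20: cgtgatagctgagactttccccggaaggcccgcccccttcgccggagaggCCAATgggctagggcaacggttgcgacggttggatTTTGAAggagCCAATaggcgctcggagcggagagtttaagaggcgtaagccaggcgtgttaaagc
CCNB1: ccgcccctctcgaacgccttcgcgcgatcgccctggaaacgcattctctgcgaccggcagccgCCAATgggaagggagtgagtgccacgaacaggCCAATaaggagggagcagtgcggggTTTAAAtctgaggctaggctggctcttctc
PLK1: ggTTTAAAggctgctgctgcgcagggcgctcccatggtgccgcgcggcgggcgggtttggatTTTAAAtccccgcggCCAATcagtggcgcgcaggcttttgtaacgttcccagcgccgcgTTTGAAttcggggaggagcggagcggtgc
AURKB: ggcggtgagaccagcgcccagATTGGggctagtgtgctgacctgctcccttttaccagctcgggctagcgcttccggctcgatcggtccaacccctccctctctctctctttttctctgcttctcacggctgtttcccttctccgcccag
A match is a run of letters and not a measured binding site.

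All 10 genes had their highest mean in untreated day-0 cells and their lowest in ND-646 TIS cells. Per kilobase of the canonical transcript, CDK1 (104 ± 20.5 CPM per kb) and AURKA (103 ± 6.43) were the most abundant in day-0 cells, and AURKB (13.1 ± 2.89) and BORA (4.18 ± 0.303) the least. As a percentage of the day-0 mean, the median over the 10 genes was 84.6% in untreated day-7, 70.2% in alisertib, 56.9% in doxorubicin, 36.0% in palbociclib, 30.8% in bleomycin, 29.8% in TVB-3166, and 14.9% in ND-646 cells. The alisertib mean lay above the mean of each other drug for all 10 genes, and ranged from 55.6% of the day-0 level for AURKB to 83.6% for BORA.

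**Figure D1:**
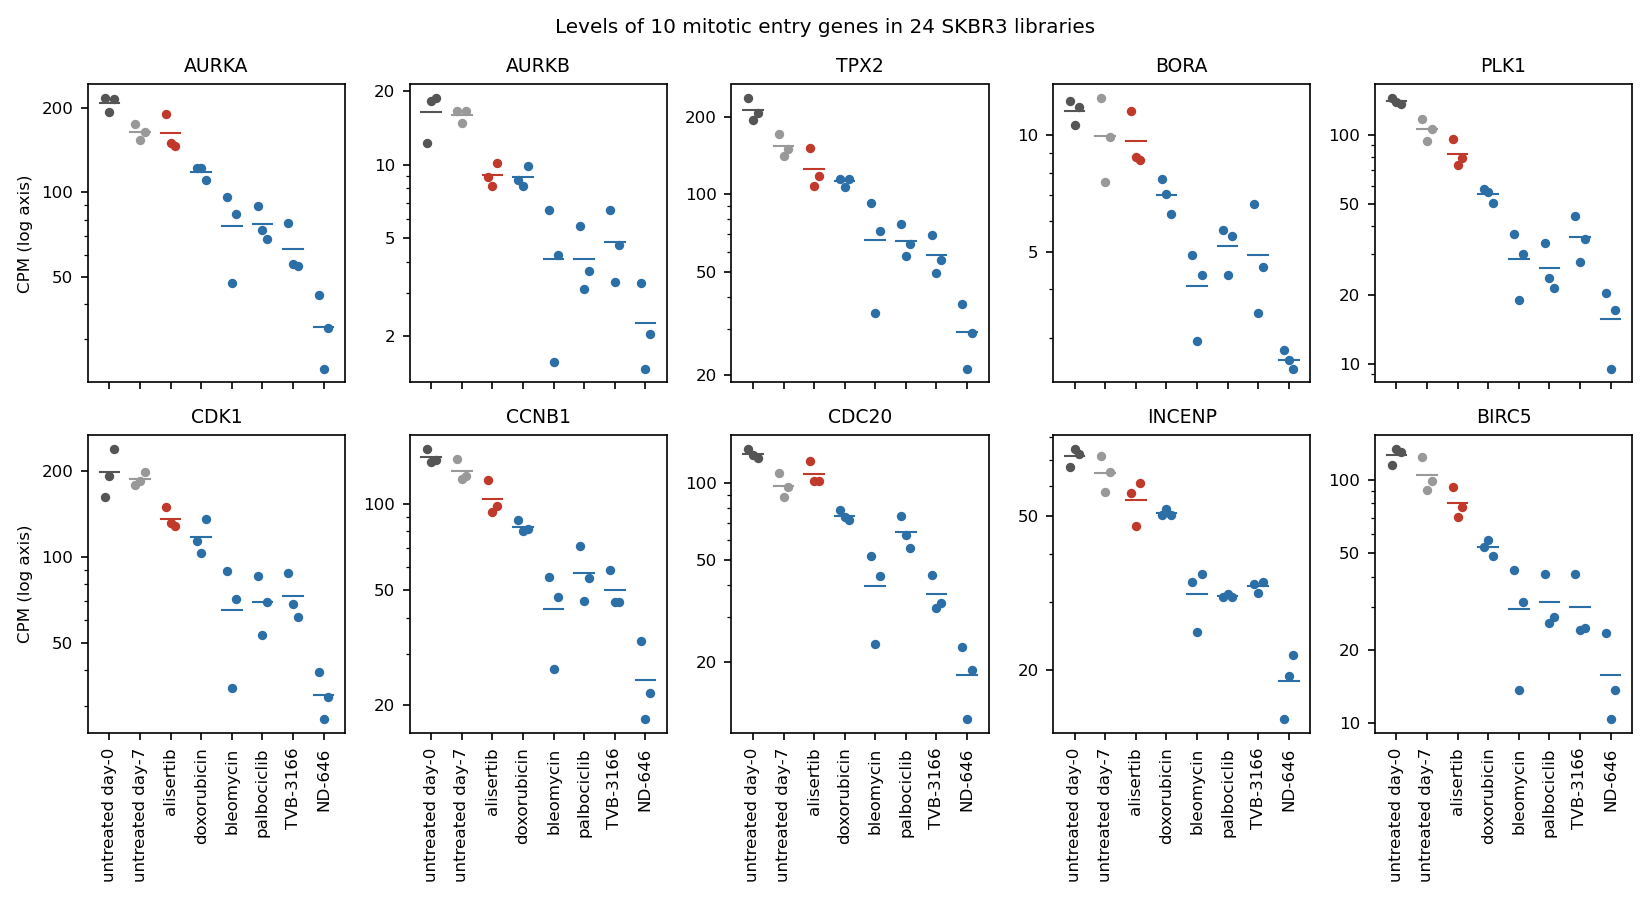
Level of each of the 10 genes in CPM (logarithmic vertical axis, a separate scale for each gene) in the 24 libraries by group, with points for libraries and horizontal lines for the mean of 3. Alisertib libraries (red) lie near the untreated day-7 libraries for AURKA, BORA, and CDC20 and below them for AURKB and CDK1, and ND-646 has the lowest mean in every panel.

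Each group was first compared with untreated day-0 cells, the control of the study, and the 7 comparisons share those libraries. A gene was called at an adjusted p-value under 0.05. In untreated day-7 cells 0 of the 10 genes were called with edgeR and no block for the replicate number, where 0.198% of all genes tested were called lower. All 10 log2 fold-changes were negative (median -0.23). At an unadjusted p-value under 0.05 in edgeR there were 4, AURKA, TPX2, PLK1, and CDC20, where 3256 of 13636 genes passed in either direction. DESeq2 called these 4 lower, as did edgeR with the replicate number as a block (adjusted p = 0.0398, 0.0139, 0.0304, and 0.0258). Neither has a share over all genes to set beside it. In alisertib TIS cells 9 genes fell (19.6% of all genes were called lower), all but BORA, with a median log2 fold-change of -0.51. All 10 fell in bleomycin (25.3%), doxorubicin (24.8%), palbociclib (27.2%), ND-646 (18.8%), and TVB-3166 cells (27.7%), with medians of -1.70, -0.80, -1.48, -2.77, and -1.74, respectively. The median over all genes tested lay between -0.01 and 0.02 in each comparison. Without day-0 replicate 1 the count was 8 in alisertib cells, where CDC20 was lost, and 10 in each other drug group. Without ND-646 replicate 1 it was 10 in ND-646 cells against either untreated group. Counts without a library have no share over all genes to set beside them.

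The groups were also compared at a limit on size, a 2-fold change with an unadjusted p-value under 0.05. None of the 10 genes passed in alisertib cells (0 of 10, where 1.44% of all genes passed as lower), and 0 of 10 passed in untreated day-7 cells (0.33%). In alisertib cells 9 had a raw p-value under 0.05 in edgeR, as did 6520 of 13765 genes tested, in either direction. In doxorubicin cells 2 passed (2.9%), PLK1 and BIRC5. All 10 passed in bleomycin (7.3%), palbociclib (6.15%), ND-646 (9.29%), and TVB-3166 cells (6.75%). PLK1 was 9.02-fold lower and BIRC5, an inhibitor of apoptosis as well as a passenger protein, 8.10-fold lower in ND-646 than in day-0 cells.

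Against untreated day-7 cells, which shared the culture time, fewer genes were called in alisertib than in any other drug group. In alisertib TIS cells 3 of 10 genes fell (9.49% of all genes were called lower), namely AURKB, CDK1, and PLK1, and the median log2 fold-change was -0.30. The count rests on the design. With all 24 libraries in one fit 0 were called, with 1 at a raw p-value under 0.05. DESeq2 called 5, the replicate number as a block gave 7, and leaving out 1 library gave 2 to 6. None of these alternatives has a share over all genes to set beside it. The 7 under the replicate block added TPX2, CCNB1, INCENP, and BIRC5 (adjusted p = 0.00493, 0.00345, 0.0395, and 0.00118). In each of the other drug groups all 10 genes fell, in bleomycin (23.2%), doxorubicin (21.5%), palbociclib (22.9%), ND-646 (17.1%), and TVB-3166 cells (26.1%), with medians of -1.40, -0.55, -1.19, -2.45, and -1.40. In the one fit of all libraries doxorubicin kept 6 of its 10 calls, again without a share over all genes.

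**Figure D2:**
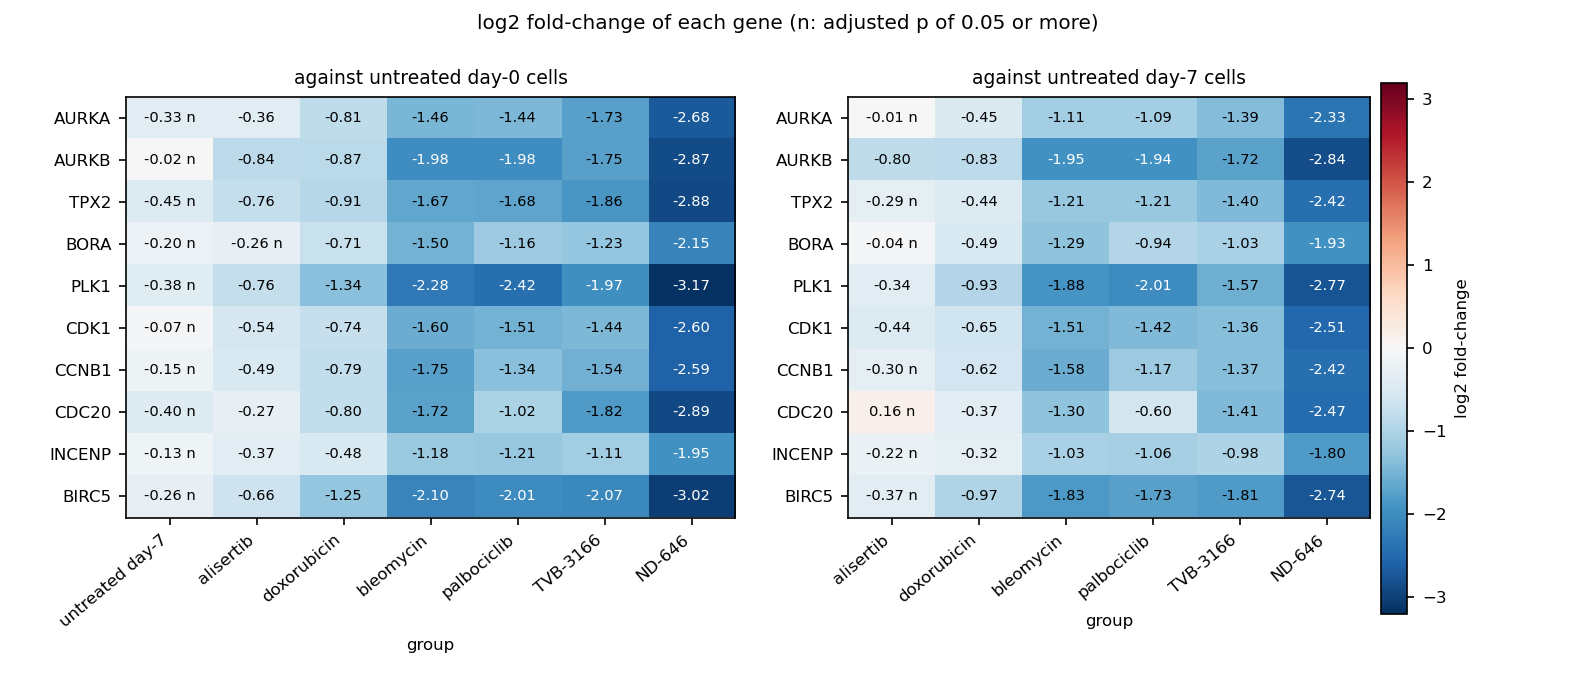
The log2 fold-change of each gene (rows) in each group (columns) against untreated day-0 cells (left) and untreated day-7 cells (right), with blue for lower and red for higher, and n beside a value whose adjusted p-value was 0.05 or more. The alisertib column is the palest of the drug columns in both panels, from -0.84 to -0.26 and from -0.80 to 0.16, and the ND-646 column is the darkest.

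AURKA, the gene of the kinase that alisertib inhibits, had levels of 191, 150, and 147 CPM in the alisertib libraries and of 176, 154, and 164 CPM in untreated day-7 libraries. The ranges overlapped, and the difference was -0.01 ± 0.10 (SE) on the log2 scale, with a 95% interval of -0.23 to 0.22 and an adjusted p-value of 0.975. Day-0 libraries had 218, 194, and 216 CPM, all above the alisertib libraries, and AURKA was lower in alisertib than in day-0 cells by a log2 fold-change of -0.36 ± 0.11 (adjusted p = 0.0239). That call was lost without alisertib replicate 2 (adjusted p = 0.0991), without alisertib replicate 3 (0.111), and without day-0 replicate 3 (0.0555). In every other drug group AURKA was lower than in alisertib cells: doxorubicin libraries had 123, 122, and 111 CPM, palbociclib libraries 89.4, 73.3, and 67.9, and bleomycin libraries 96.1, 47.4, and 83.6. TVB-3166 libraries had 78.1, 55.4, and 54.4 CPM and ND-646 libraries 43.0, 23.4, and 32.8, which did not overlap. The fall against day-7 cells was 1.37-fold in doxorubicin cells and 5.03-fold in ND-646 cells.

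TPX2 encodes the activator that binds Aurora A on the spindle. Its levels were 237, 194, and 206 CPM in day-0, 172, 142, and 150 CPM in day-7, and 151, 108, and 118 CPM in alisertib libraries. TPX2 was lower in alisertib than in day-0 cells (log2 fold-change -0.76 ± 0.13; adjusted p = 0.00155), and against day-7 cells it was at -0.29 ± 0.12 with an adjusted p-value of 0.110. Against day-7 cells it became called without alisertib replicate 1 (0.0148) and with the replicate block (0.00493). TPX2 fell to 112 ± 4.43 CPM in doxorubicin, 66.4 ± 29.3 in bleomycin, 66.2 ± 9.65 in palbociclib, 58.3 ± 10.4 in TVB-3166, and 29.1 ± 8.19 in ND-646 cells. BORA, the Aurora A cofactor for PLK1, was the least abundant of the 10 genes per kilobase and the one not called in alisertib against day-0 cells. BORA had 11.5, 8.80, and 8.63 CPM in alisertib libraries, 12.5, 7.56, and 9.88 CPM in day-7 libraries, and 12.2, 10.6, and 11.8 CPM in day-0 libraries. The alisertib libraries overlapped both untreated groups, with log2 fold-changes of -0.26 (95% interval -0.59 to 0.06) against day-0 and -0.04 (-0.45 to 0.37) against day-7 cells. In ND-646 cells BORA fell to 2.63 ± 0.146 CPM, a log2 fold-change of -2.15 ± 0.19 against day-0 cells (adjusted p = 7.7e-05). DIS3, the gene on the opposite strand, did not pass the test against day-0 cells in any group, but was higher in bleomycin and doxorubicin than in day-7 cells (log2 fold-change 0.28 and 0.23; adjusted p = 0.0264 and 0.0396).

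AURKB, the catalytic subunit of the passenger complex, was the gene that fell most in alisertib cells. Its levels were 8.90, 8.21, and 10.1 CPM there, against 16.6, 14.9, and 16.6 CPM in day-7 and 12.2, 18.1, and 18.7 CPM in day-0 libraries. Every alisertib library was below every untreated library, and AURKB was 1.74-fold lower than in day-7 cells (log2 fold-change -0.80 ± 0.12; adjusted p = 0.00201). Doxorubicin libraries held 8.62, 8.18, and 9.86 CPM, and the difference between both drugs was 0.02 on the log2 scale, with a 95% interval of -0.27 to 0.32. In the other drug groups AURKB was scarcer and more variable, with 6.55, 1.56, and 4.27 CPM in bleomycin, 5.62, 3.11, and 3.68 in palbociclib, 6.52, 3.32, and 4.69 in TVB-3166, and 3.30, 1.47, and 2.04 in ND-646 libraries.

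INCENP, the scaffold that binds Aurora B and activates it, had the smallest fold-change of the 10 genes against day-0 cells in bleomycin, doxorubicin, ND-646, and TVB-3166 cells. It had 57.5, 47.1, and 61.0 CPM in alisertib libraries, 71.7, 57.8, and 64.9 CPM in day-7 libraries, and 66.9, 74.8, and 72.6 CPM in day-0 libraries. Alisertib libraries were all below day-0 libraries and overlapped day-7 libraries. INCENP was lower in alisertib than in day-0 cells by a log2 fold-change of -0.37 ± 0.11 (adjusted p = 0.0200), a call lost without alisertib replicate 2 (0.0862) or day-0 replicate 2 (0.0805), and was at -0.22 ± 0.11 against day-7 cells (adjusted p = 0.184, and 0.0395 with the replicate block). BIRC5, which encodes survivin, had 93.6, 70.3, and 77.1 CPM in alisertib, 124, 91.1, and 99.0 CPM in day-7, and 115, 134, and 130 CPM in day-0 libraries. It fell against day-0 cells (log2 fold-change -0.66 ± 0.11; adjusted p = 0.00182), and against day-7 cells the libraries overlapped and it was at -0.37 ± 0.13 (adjusted p = 0.0622). Against day-7 cells BIRC5 became called without alisertib replicate 1 (0.0240) and without day-7 replicate 2 (0.0260). The same held with DESeq2 (0.0182) and with the replicate block (0.00118). BIRC5 had the largest fall of the 10 genes in doxorubicin cells against day-7 cells, 1.95-fold, and in ND-646 cells it was down to 15.8 ± 6.79 CPM.

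PLK1, the kinase that Aurora A activates, had 95.8, 73.7, and 78.9 CPM in alisertib libraries against 145, 139, and 136 CPM in day-0 and 118, 94.3, and 106 CPM in day-7 libraries. All alisertib libraries were below all day-0 libraries, whereas alisertib replicate 1 was above day-7 replicate 2. PLK1 fell against day-0 cells by a log2 fold-change of -0.76 ± 0.10 (adjusted p = 0.000584). Against day-7 cells it was lower by -0.34 ± 0.11 (adjusted p = 0.0470), and that call was lost without alisertib replicate 2 or 3 and without day-7 replicate 1 or 3 (adjusted p = 0.160, 0.164, 0.114, and 0.119). PLK1 had the largest fold-change of the 10 genes against day-0 cells in bleomycin (4.87-fold lower), doxorubicin (2.52-fold), palbociclib (5.33-fold), and ND-646 cells (9.02-fold). Palbociclib libraries held 33.5, 23.6, and 21.4 CPM and doxorubicin libraries 57.8, 56.3, and 50.5 CPM, all below the alisertib libraries.

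CDK1, the kinase of mitotic entry, had 149, 131, and 128 CPM in alisertib libraries, 179, 184, and 197 CPM in day-7 libraries, and 162, 191, and 239 CPM in day-0 libraries. Alisertib libraries were below all untreated libraries. CDK1 fell by a log2 fold-change of -0.44 ± 0.08 against day-7 cells (adjusted p = 0.00431) and of -0.54 ± 0.13 against day-0 cells (adjusted p = 0.0102, and 0.0531 without alisertib replicate 3). Its partner CCNB1, cyclin B1, had 121, 93.4, and 98.3 CPM in alisertib and 143, 121, and 125 CPM in day-7 libraries. Those groups met at 121 CPM without crossing, and the log2 fold-change was -0.30 ± 0.10 with an adjusted p-value of 0.0592. CCNB1 became called without alisertib replicate 1 (0.0139), without day-7 replicate 2 (0.0435), with DESeq2 (0.0253), and with the replicate block (0.00345). Against day-0 cells CCNB1 fell by -0.49 ± 0.10 (adjusted p = 0.00526). In ND-646 cells CDK1 was down to 32.9 ± 6.37 CPM and CCNB1 to 24.4 ± 8.11 CPM.

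CDC20, the activator of the anaphase-promoting complex, was the gene with a higher mean in alisertib than in untreated day-7 cells. Its levels were 122, 102, and 102 CPM in alisertib, 109, 87.8, and 96.1 CPM in day-7, and 136, 129, and 126 CPM in day-0 libraries. The alisertib libraries overlapped day-7 libraries, with a log2 fold-change of 0.16 ± 0.10 (95% interval -0.05 to 0.38; adjusted p = 0.262), and were all below day-0 libraries. CDC20 was lower than in day-0 cells by -0.27 ± 0.09 (adjusted p = 0.0424), a call lost without alisertib replicate 2 or 3 and without day-0 replicate 1 or 2 (0.156, 0.163, 0.0830, and 0.101). Palbociclib libraries, with 74.7, 62.6, and 55.6 CPM, held CDC20 at 49.3% of the day-0 level, the highest percentage of any of the 10 genes in that group. ND-646 libraries held 23.0, 11.9, and 18.6 CPM.

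Alisertib was then compared with each other drug at day 7. These comparisons share the alisertib libraries. All 10 genes were higher in alisertib than in bleomycin (18.5% of all genes were called higher), palbociclib (14.9%), ND-646 (13.5%), and TVB-3166 cells (20.2%), with median log2 fold-changes of 1.18, 0.94, 2.12, and 1.08. CDC20 was 6.17-fold higher in alisertib than in ND-646 cells and PLK1 3.15-fold higher than in palbociclib cells. Against bleomycin the calls of AURKB and TPX2 (adjusted p = 0.0452 and 0.0336) were lost when any 1 alisertib library or bleomycin replicate 3 was left out.

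Doxorubicin was the drug closest to alisertib. There 6 genes were higher in alisertib cells (12.6% of all genes were called higher): BIRC5, PLK1, CDC20, BORA, AURKA, and CCNB1, with log2 fold-changes of 0.59, 0.58, 0.53, 0.45, 0.44, and 0.31. AURKA was 1.36-fold higher (adjusted p = 0.00671). BORA had an adjusted p-value of 0.0484 that rose above the threshold when any 1 of the 6 libraries was left out, and the CCNB1 call (0.0305) was lost when alisertib replicate 1 or any 1 doxorubicin library was left out, whereas CDK1 became called without doxorubicin replicate 3 (0.0309). AURKB, TPX2, CDK1, and INCENP were not called, with 95% intervals of -0.27 to 0.32, -0.09 to 0.38, -0.01 to 0.42, and -0.10 to 0.31. With all 24 libraries in one fit 0 of the 10 genes were called higher in edgeR, with 4 at a raw p-value under 0.05. That fit has no share over all genes to set beside it.

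**Figure D3:**
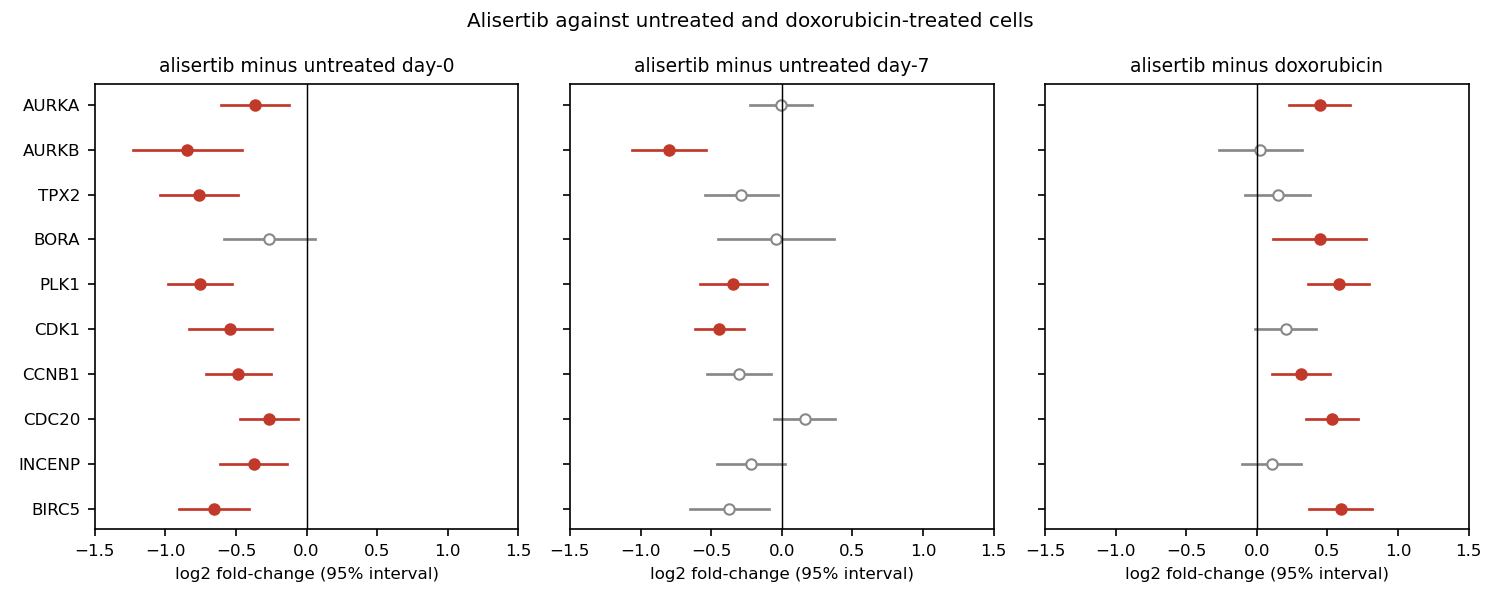
The log2 fold-change of each gene in alisertib cells against untreated day-0, untreated day-7, and doxorubicin cells, with bars for the 95% interval and filled red points for an adjusted p-value under 0.05. AURKA is at -0.36, -0.01, and 0.44 and AURKB at -0.84, -0.80, and 0.02, so AURKA is called against day-0 and doxorubicin cells and AURKB against both untreated groups.

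The lipid synthesis inhibitors were compared with each other at the same dose and time. TVB-3166 cells had higher means than ND-646 cells for all 10 genes, but 1 gene was called (0.52% of all genes were called higher). CDK1 had 87.9, 68.4, and 61.5 CPM in TVB-3166 and 39.6, 26.9, and 32.2 CPM in ND-646 libraries, a 2.22-fold difference (adjusted p = 0.0488). The other 9 had log2 fold-changes of 0.83 (INCENP) to 1.20 (PLK1) and adjusted p-values of 0.0703 to 0.244. All 10 had a raw p-value under 0.05 in edgeR, as did 2057 of 13662 genes tested, in either direction. With the replicate block 9 genes were called, and DESeq2 called 7, both without a share over all genes to set beside them. Leaving out ND-646 replicate 1, whose level was the highest of its group for 9 of the 10 genes, gave 9 calls. Leaving out any other library gave 0 with edgeR, with 8 to 10 at a raw p-value under 0.05. These counts have no share over all genes beside them either, so they are not read as particular to the 10 genes.

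Ratios between genes of the same library do not depend on the scaling between libraries. They are given on the log2 scale, without a test. AURKA over AURKB was 3.36 ± 0.05 in day-7 and 4.15 ± 0.28 in alisertib cells, and the lowest alisertib library (3.85) was above the highest day-7 library (3.40). It was 3.70 ± 0.40 in day-0 cells, which overlapped alisertib, and its means in bleomycin (4.33 ± 0.51) and palbociclib cells (4.23 ± 0.28) were above that in alisertib cells. AURKA over TPX2 had its highest mean in alisertib cells, 0.38 ± 0.09, against 0.10 ± 0.05 in day-7 and -0.02 ± 0.09 in day-0 cells, with neither untreated group overlapping. The lowest alisertib library (0.32) was below the highest bleomycin (0.45) and palbociclib (0.35) libraries. Those drug groups had means of 0.24 and 0.22. PLK1 over AURKA went from -0.58 ± 0.09 in day-0 and -0.64 ± 0.06 in day-7 to -0.97 ± 0.07 in alisertib and -1.57 ± 0.14 in palbociclib cells. INCENP over AURKB was 2.01 ± 0.08 in day-7 and 2.59 ± 0.09 in alisertib cells, with means of 2.52 in doxorubicin, 2.80 in TVB-3166, 2.93 in palbociclib, 3.07 in ND-646, and 3.11 in bleomycin cells, all above the day-7 mean. The means of CDK1 over CCNB1 stayed between 0.27 and 0.55 in all 8 groups.

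**Figure D4:**
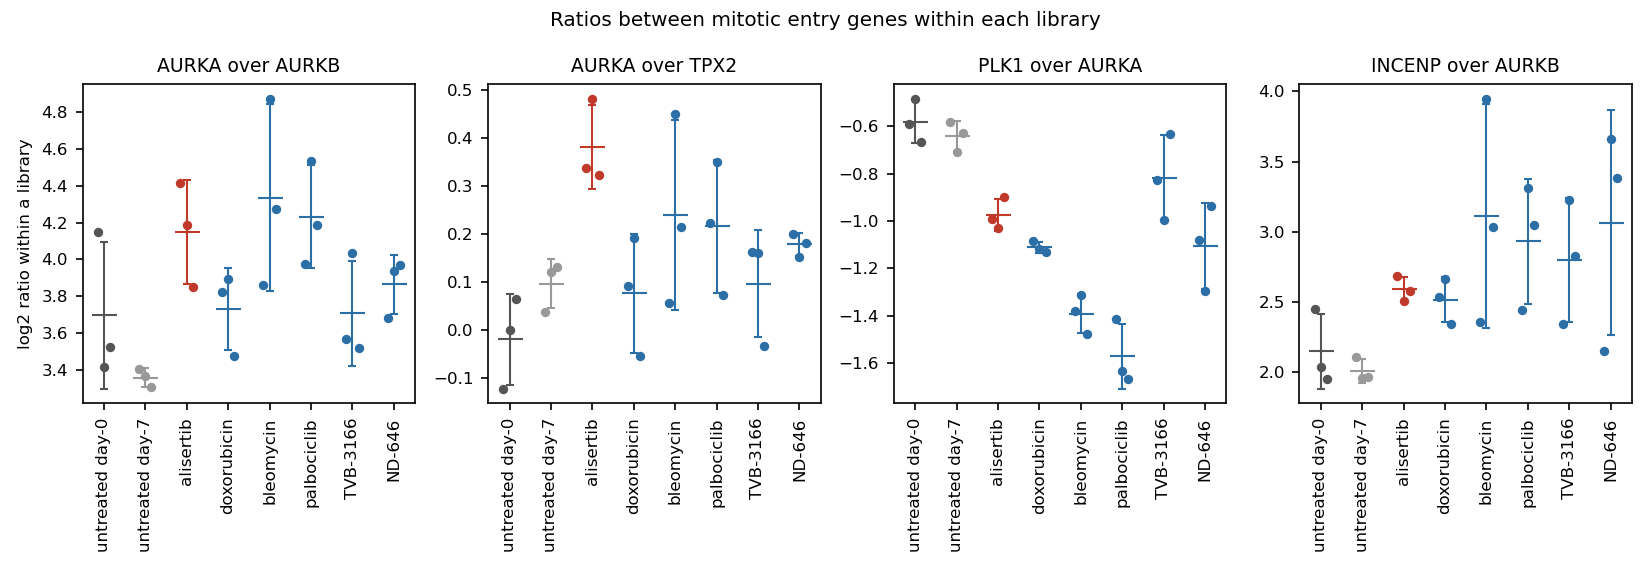
Ratio of transcript levels within each library on the log2 scale for AURKA over AURKB, AURKA over TPX2, PLK1 over AURKA, and INCENP over AURKB, by group, with points for libraries and bars for mean ± SD of 3. Alisertib has the highest mean of AURKA over TPX2 (0.38), where its libraries overlap those of bleomycin and palbociclib. Its libraries lie above all day-7 libraries for AURKA over AURKB and INCENP over AURKB.

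When the 8 groups were put in order of their means for each gene, 18 of 70 neighbouring pairs differed at an adjusted p-value under 0.05. The same means set the order, so neighbours are the closest groups, and no share over all genes stands beside this count. Untreated day-0 and day-7 cells did not differ for any gene for which they were neighbours. For AURKA neither day-0 and day-7 cells nor day-7 and alisertib cells differed as neighbours, although alisertib was lower than day-0 cells (0.0239). AURKA then dropped to doxorubicin (0.00671) and again to palbociclib (0.00174), with bleomycin, TVB-3166, and ND-646 not separated from their neighbours. AURKB dropped earlier, between day-7 and alisertib cells (0.00201), and then between doxorubicin and TVB-3166 (0.00451). TPX2 declined with no step between neighbours that passed the test. The step from alisertib to doxorubicin also passed for BORA, PLK1, CCNB1, and BIRC5, and INCENP was the gene for which ND-646 cells stood below their neighbour, palbociclib (0.0155). Groups that are not neighbours can differ as well. ND-646 was called below palbociclib for AURKA, TPX2, BORA, CDK1, CCNB1, CDC20, and BIRC5 (0.00209 for CDC20 to 0.0484 for BIRC5). It was not for AURKB (0.102) or PLK1 (0.0920).

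Replicates of a group did not scatter independently from gene to gene. Replicate 1 had the highest level for 9 of the 10 genes in day-7, bleomycin, palbociclib, ND-646, and TVB-3166 cells and for 8 in alisertib cells. Replicate 2 had the lowest level for all 10 in bleomycin, 9 in day-7, 8 in ND-646 and in TVB-3166, and 7 in alisertib cells. The 10 genes are therefore not 10 separate measurements of a group. Their median coefficient of variation was 35.7% in bleomycin and 30.4% in ND-646 cells, against 6.75% in day-0, 6.44% in doxorubicin, and 13.9% in alisertib cells.

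Across the 24 libraries, each gene was matched to the 3 genes whose centred log2 CPM differed least from its own, by root mean square difference. For AURKA these were TPX2 (0.148), FAM83D (0.171), and CCNB1 (0.173), where AURKA itself varied by 0.876. For AURKB they were BIRC5 (0.240), NUSAP1 (0.264), and CDK1 (0.269). PLK1 was nearest to KIF4A (0.188), CDK1 to FBXO5 (0.154), CCNB1 to CCNB2 (0.140), CDC20 to BUB1 (0.140), BORA to CKAP2 (0.148), and BIRC5 to NCAPG (0.190). INCENP was nearest to MCM4 (0.168), a subunit of the replicative helicase, and then to DNMT1 and TIMELESS. The points share libraries and depth, so the distances are a description.

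Other genes of the pathway were taken from 6 lists, and their counts stand beside 9.49% of all genes called lower in alisertib, 17.1% in ND-646, and 26.1% in TVB-3166 against day-7 cells. In alisertib against day-7 cells, 3 of 12 regulators of the CDK1 switch fell and none rose, with a list median of -0.16. They were the cyclins CCNA2 (log2 fold-change -0.39; adjusted p = 0.0280) and CCNB2 (-0.37; 0.0456) and the phosphatase CDC25C (-0.43; 0.0422). Of 7 genes of the passenger complex and its recruitment 1 fell, the kinesin KIF20A (-0.37; 0.0357). Of 18 genes of the anaphase-promoting complex 2 fell, ANAPC5 (-0.31; 0.0183) and UBE2C (-0.42; 0.0384). Counts this small are near the share over all genes and say nothing about the passenger and anaphase lists. In ND-646 cells 8, 6, and 7 genes of these lists fell against day-7 cells, with CCNA2 at -2.78 and KIF20A at -2.85, and ANAPC16 rose (0.84; 0.00309). In TVB-3166 cells 8, 6, and 8 fell.

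Of 10 partners and regulators of Aurora A, 1 rose in alisertib against day-7 cells and none fell, where 1318 of 13795 genes were called higher, so the count is near that over all genes. The gene was NEDD9, a scaffold protein that can activate Aurora A. NEDD9 libraries held 46.3, 42.2, and 38.3 CPM in alisertib and 28.6, 31.6, and 31.3 CPM in day-7 cells, with no overlap (log2 fold-change 0.49 ± 0.09; adjusted p = 0.00582). NEDD9 had higher means in bleomycin and doxorubicin cells (118.5 CPM in each) and rose in ND-646 against day-7 cells (1.05; 0.000946), so it moved against the 10 genes in those groups. The 4 other Aurora and Polo family kinases had log2 fold-changes from -0.02 (AURKC) to 0.21 (PLK2) in alisertib against day-7 cells, with adjusted p-values of 0.512 to 0.986 (PLK2 and PLK3), and AURKC, the germ cell Aurora kinase, had group means of 0.352 to 0.627 CPM. Among 10 transcription factors of G2 and M phase genes, 1 fell and 1 rose in alisertib against day-7 cells, with a list median of -0.03. The count is near that over all genes, of which 9.49% were called lower. The gene that fell was MYBL2, a Myb protein that binds these promoters with the MuvB complex. MYBL2 went from 197, 141, and 183 CPM in day-7 to 89.8, 73.8, and 84.3 CPM in alisertib libraries. That change (log2 fold-change -1.06 ± 0.12; adjusted p = 0.000463) was larger than that of any of the 10 genes in the same comparison. NFYB, a subunit of NF-Y, rose in alisertib (0.28; 0.0251) and fell in ND-646 against day-7 cells (adjusted p = 0.00116). In ND-646 against day-7 cells 7 of the 10 factors fell and 0 rose, where 17.1% of all genes were called lower. Among them was FOXM1, a forkhead activator of mitotic genes (log2 fold-change -2.65, adjusted p = 0.000137). In TVB-3166 cells 6 fell and 1 rose, where 26.1% of all genes were called lower.

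**Figure D5:**
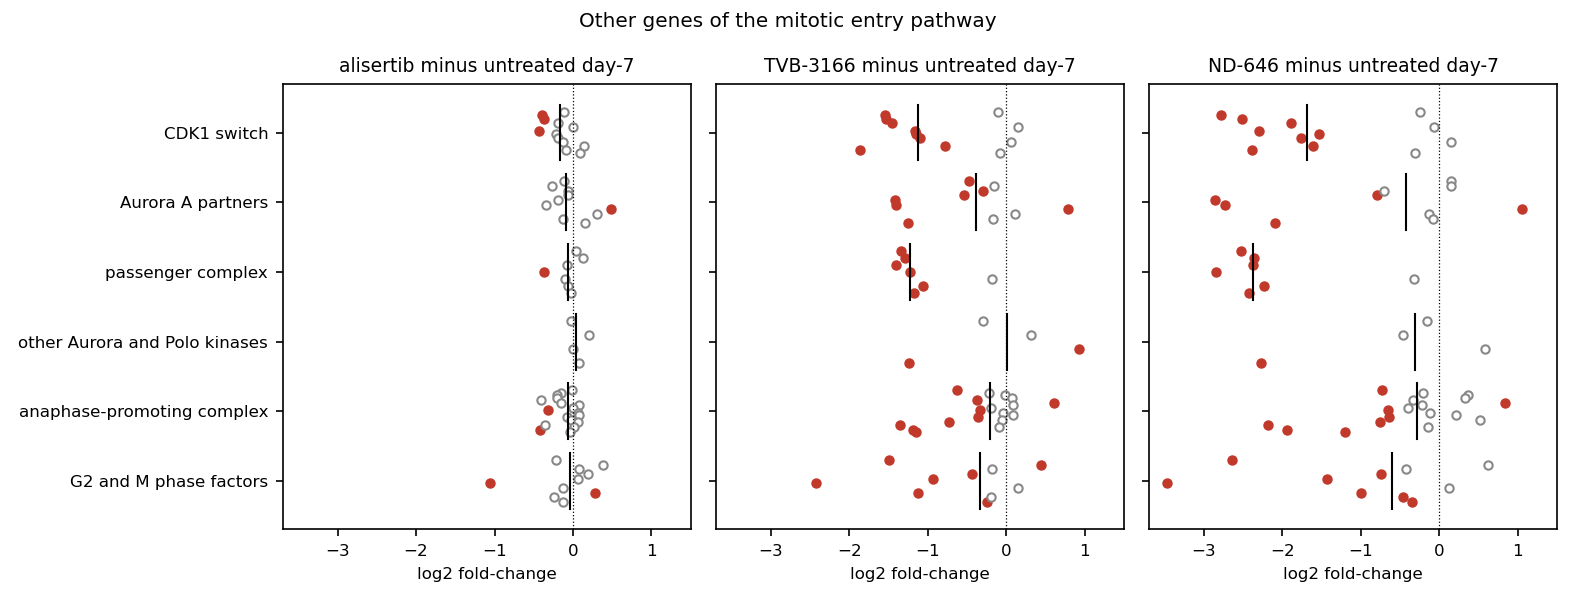
The log2 fold-change of each gene of 6 pathway lists in alisertib, TVB-3166, and ND-646 cells against untreated day-7 cells, with filled red points for an adjusted p-value under 0.05 and a black line for the list median. In alisertib the CDK1 switch list has a median of -0.16 with 3 of 12 genes called, against 8 of 12 called lower in ND-646.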

How the data were processed

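RNA from 24 libraries of SKBR3 cells was sequenced, and the authors deposited 1 table of raw read counts per gene. Per the labels, reads were processed with HISAT2 and StringTie on GRCh37; counting settings and the use of strand are not given in the sources used here. The labels name a stranded mRNA kit and the methods a stranded total RNA kit. Total counts per library ranged from 29405121 to 44316330. Groups came from the labels, with 3 libraries each.

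Each of 19 comparisons was fitted on its own 6 libraries over all genes (filterByExpr, TMM) with edgeR (version 4.0.16, limma 3.58.1, R 4.3.3) and its quasi-likelihood test, two-sided, with Benjamini-Hochberg adjustment over all genes tested. A gene was called at an adjusted p-value under 0.05. For the order of the groups, the remaining pairs of groups were fitted in the same way, and no alternatives were run for them. Levels are TMM-scaled CPM, with a prior count of 2 on the log2 scale. An exact permutation test of 3 against 3 cannot go below p = 0.1 and was not used. Alternatives were DESeq2 (version 1.42.0), other scalings and filters, all 24 libraries in one fit, a block for the replicate number, and the omission of each library in turn. Same-numbered libraries deviated together (r over 0.1 in all 3 pairs) in 6 of the 19 comparisons, among them alisertib against day-7 cells (0.105 to 0.218) and TVB-3166 against ND-646 (0.213 to 0.380); the labels do not say what a number marks.

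The members, lists and tests were chosen with earlier results of these data known. Named genes were the 10 members, the 3 nearest genes of each, and at most 4 per list, first those called in alisertib comparisons or with the largest changes in ND-646, TVB-3166, or alisertib. The fits were tested on data simulated from the alisertib and day-7 libraries. There edgeR recovered 8 of 50 genes changed 1.25-fold, 30 of 50 changed 1.5-fold, and 48 of 50 changed 3-fold. Gene positions came from a GRCh37 annotation and promoters from RefSeq (GRCh38.p14).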

Additional observations from a re-analysis of the deposited data

How the results depend on the processing

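No called value of the 10 genes reversed under the alternatives run: of 1330 values under other settings 0 reversed, 32 lost and 38 gained the call, and of 1140 values with 1 library left out 0 reversed, 44 lost and 14 gained it. Of values that were not called, AURKA (-0.13 to 0.06) and BORA (-0.21 to 0.15) in alisertib against day-7 cells, AURKB (-0.07 to 0.10) and TPX2 (-0.01 to 0.24) in alisertib against doxorubicin cells, and AURKB (-0.19 to 0.08) and CDK1 (-0.19 to 0.08) in day-7 against day-0 cells changed sign. The counts of called genes moved more, and the cause was not tested. Apart from the fold-change of 2, the alternatives have no share over all genes to set beside their counts. For untreated day-7 against day-0 cells (0 lower) DESeq2 gave 4 and the replicate block 4. For alisertib against day-0 cells (9 lower), library totals gave 5, all 24 libraries in one fit 3, a fold-change of 2 with a raw p-value 0, and leaving out 1 library 6 to 9. For doxorubicin against day-0 cells (10 lower) the fold-change of 2 gave 2. For alisertib against day-7 cells (3 lower), DESeq2 gave 5, no filter 2, all 24 libraries 0, the replicate block 7, and leaving out 1 library 2 to 6. All 24 libraries gave 6 for doxorubicin against day-7 cells (10 lower) and 0 for alisertib against doxorubicin (6 higher), where leaving out 1 library gave 4 to 5. For TVB-3166 against ND-646 (1 higher), library totals gave 4, DESeq2 7, no filter 0, all 24 libraries 8, the replicate block 9, and leaving out 1 library 0 to 9. The replicate block changed no other call of the 10 genes. None of the 192 recomputed ratios between genes moved by the SD of 3 libraries or more. Leaving out 1 of 3 libraries cannot move a mean that far, so those values test nothing. Only the 48 ratios recomputed with a prior count of 0.5 could have moved.

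With 3 libraries a group, a gene that was not called is not shown to be unchanged. AURKB and BORA rest on the fewest counts. Bulk RNA from 1 cell line gives no account of single cells, and transcript levels do not measure kinase activity.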
